A study of Solanum lycopersicum with 9 samples.

Results

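The Aux/IAA genes described here encode repressors of the auxin response in tomato, and they were followed in the locular tissue of young fruit, the gel-like tissue around the seeds. They are the 10 rows of the count table whose identifier belongs to SlIAA1, SlIAA2, SlIAA3, SlIAA4, SlIAA7, SlIAA8, SlIAA9, SlIAA14, SlIAA17 or SlIAA27, out of 34075 rows. The rule of choice used only gene identity, but it was set with earlier results of these data known. All 10 passed the filter on low counts that left 19358 genes for testing, though SlIAA7 did so only through the libraries of the unedited genotype.

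Aux/IAA proteins bind auxin response factors (ARFs) on promoters and recruit TOPLESS co-repressors, which keeps auxin-responsive genes silent. Auxin joins an Aux/IAA protein to a TIR1/AFB receptor, the protein is degraded, and the ARF is released. Many Aux/IAA genes are themselves induced by auxin, so that the pathway feeds back on its own repressors. In tomato fruit the pathway is known for its part in fruit set and in the cell division and expansion that follow.

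The study asked which transcripts change early, while locular tissue takes shape, when SlZFP2 is edited. The lines c2.5 and c2.11 were made by CRISPR editing of SlZFP2, a zinc finger transcription factor, and WT is the unedited genotype, all in the small-statured Micro-Tom background. There were 3 libraries per genotype, 9 in all, each made from a pool of locular tissue cut from 6 fruits at 6 days post anthesis and freed of seeds. What each edit changes in the gene, and whether pools came from separate plants or days, is not stated in the labels, and the p-values may therefore measure only the spread between pools. Both lines are set against the same WT libraries.

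The libraries held 19963325 to 20727310 counts. SlZFP2 itself (Solyc07g053570.4, paired with its name from general knowledge) had 15 to 31 counts in c2.5 libraries and 30 to 49 in c2.11 libraries, against 11 to 21 in WT libraries, and transcript counts do not show whether a gene is edited. SlZFP2 was called higher in c2.11 (log2 change 1.04, edgeR adjusted p = 0.0190), where 27.3% of tested genes were higher. In c2.5 it was not called (0.48, edgeR adjusted p = 0.276). The 4 identifiers that general knowledge assigns to C- and D-class MADS-box genes, which act in placenta, locule and ovule, were all detected. Their summed level was 623 to 643 normalized CPM (CPM: the count scaled to the TMM-adjusted library size) in c2.5, 641 to 670 in c2.11 and 543 to 574 in WT. Of 5 cuticle genes that mark epidermis, 3 had enough counts to be tested, and their sum was 74.2 to 85.0 in c2.5, 74.5 to 107 in c2.11 and 54.9 to 62.7 in WT. None of these 9 markers was at 0 in every library. In both lines together 3 of the 4 MADS-box genes and 1 of the 3 cuticle genes were higher (edgeR adjusted p under 0.05). Among all tested genes 28.5% were higher. The log2 changes of the cuticle genes had a median of 0.09 and a maximum of 1.06. The part of such marker differences in the results below was not tested, and in bulk tissue fewer cells of a type and less RNA per cell cannot be told apart.

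The edited lines carried a different mix of Aux/IAA transcripts from WT. In both lines together, 5 genes were higher (SlIAA2, SlIAA27, SlIAA8, SlIAA1 and SlIAA9), 4 were lower (SlIAA7, SlIAA14, SlIAA4 and SlIAA17), and SlIAA3 did not pass the test (edgeR adjusted p = 0.108), though it did without c2.5 replicate 1 (0.0487). SlIAA7 was 20.1-fold lower and SlIAA2 was 3.58-fold higher, while the other called changes lay between 1.20-fold and 2.06-fold. A change was called at an adjusted p under 0.05 in edgeR's quasi-likelihood test, with Benjamini-Hochberg adjustment over all tested genes. Of those genes, 57.1% were called in this comparison, 28.5% higher and 28.6% lower, so the number of Aux/IAA genes called (9 of 10) is read against a transcriptome in which most genes differ. The median log2 change was 0.23 over the 10 genes and 0.01 over all tested genes.

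**Figure D1:**
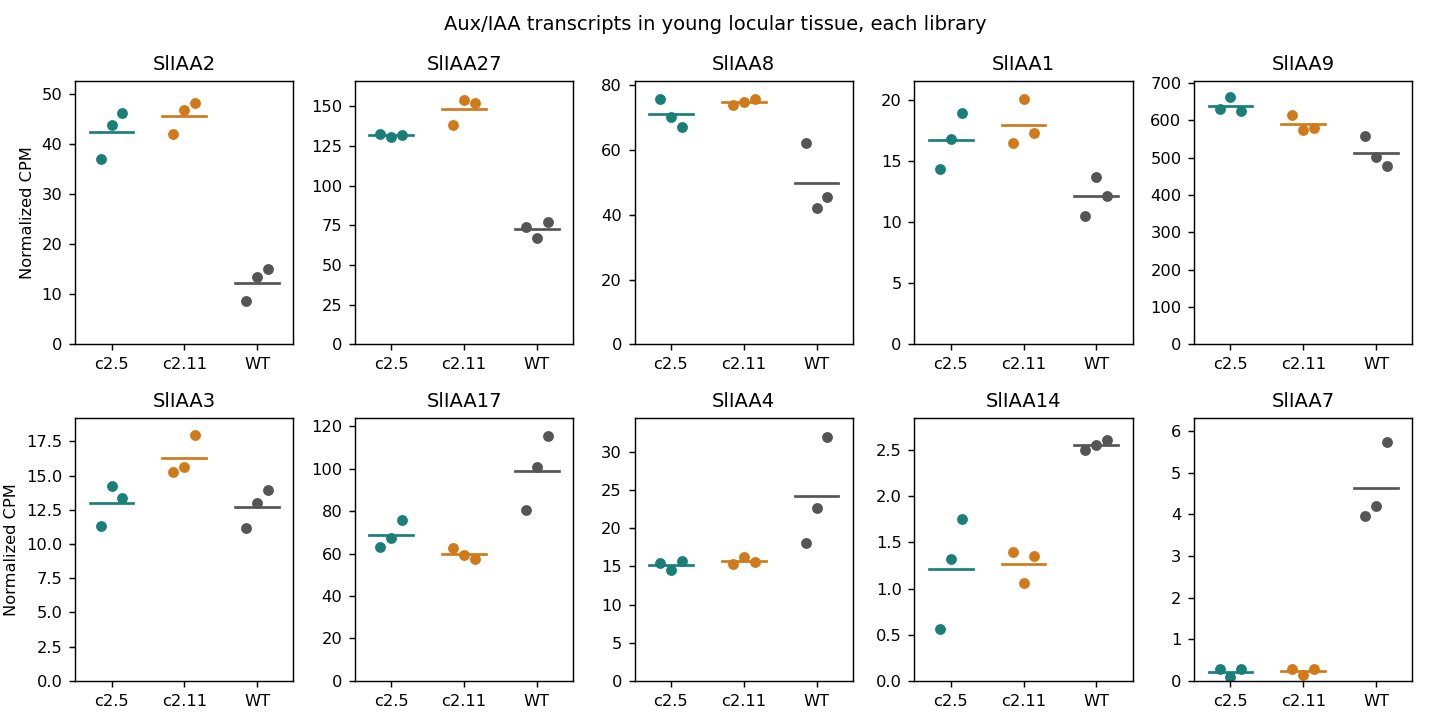
Normalized CPM (linear axes from 0) of the 10 Aux/IAA genes in each library of c2.5, c2.11 and WT; dots are libraries and lines are means of 3. SlIAA2 lies at 37.0 CPM or above in the lines and at 15.0 or below in WT, SlIAA7 at 0.280 or below in the lines and at 3.97 or above in WT, and SlIAA3 overlaps between c2.5 and WT.

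The genes that rose fall into a strong response, SlIAA2, a response near 2-fold, SlIAA27, and 3 smaller ones. SlIAA2 (Solyc06g084070.3, chromosome 6) had 37.0, 43.9 and 46.1 normalized CPM in c2.5 libraries and 42.1, 46.8 and 48.1 in c2.11 libraries, against 8.59, 13.4 and 15.0 in WT libraries. The line and WT libraries lay far apart, and the levels of the lines overlapped each other. The log2 change in both lines together was 1.84 ± 0.16 (SE, edgeR adjusted p = 1.61e-05), larger in size than that of 95.1% of tested genes. It was 1.78 ± 0.18 in c2.5 and 1.89 ± 0.18 in c2.11.

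SlIAA27 (Solyc03g120500.4, chromosome 3) is a repressor whose silencing is known to alter fruit development and chlorophyll accumulation in tomato. It had 133, 131 and 132 normalized CPM in c2.5 libraries and 138, 154 and 152 in c2.11 libraries, against 73.9, 66.8 and 77.0 in WT libraries. The line and WT libraries were far apart, and the c2.5 libraries differed among themselves by less than 2 CPM. The log2 change in both lines was 0.95 ± 0.06 (SE, edgeR adjusted p = 2.54e-08). Among the 10 genes this was the smallest adjusted p, on a gene with 1176 counts or more in every library.

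SlIAA8 (Solyc12g007230.2, chromosome 12) had 75.7, 70.1 and 67.2 normalized CPM in c2.5 and 73.8, 74.8 and 75.8 in c2.11, against 62.1, 42.2 and 45.6 in WT. SlIAA1 (Solyc09g083280.3, chromosome 9) had 14.3, 16.8 and 19.0 in c2.5 and 16.5, 20.1 and 17.4 in c2.11, against 10.5, 13.7 and 12.1 in WT. The groups did not overlap for either gene, although the lowest line library of SlIAA1 stood only just above the highest WT library. The log2 change in both lines was 0.54 ± 0.11 for SlIAA8 (SE, edgeR adjusted p = 0.00178). It was 0.52 ± 0.11 for SlIAA1 (edgeR adjusted p = 0.00150).

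SlIAA9 (Solyc04g076850.3, chromosome 4) is the repressor known from the entire mutant of tomato, in which leaves are simple and fruits set without pollination. It had 630, 662 and 625 normalized CPM in c2.5 and 614, 573 and 580 in c2.11, against 558, 502 and 477 in WT. All line libraries were above all WT libraries, but the gap between the nearest ones, c2.11 replicate 2 and WT replicate 1, was small. The log2 change was 0.32 ± 0.06 in c2.5 (SE, edgeR adjusted p = 0.00111) and 0.20 ± 0.06 in c2.11 (edgeR adjusted p = 0.0177). The call in c2.11 was lost without c2.11 replicate 1 (edgeR adjusted p = 0.0745) or WT replicate 3 (0.0622).

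SlIAA3 (Solyc09g065850.4, chromosome 9) is known in tomato as a repressor at the crossing of auxin and ethylene responses. It had 11.3, 14.2 and 13.4 normalized CPM in c2.5 and 15.3, 15.6 and 18.0 in c2.11, against 11.2, 13.0 and 13.9 in WT. Thus c2.5 overlapped WT, and c2.11 did not. The log2 difference from WT was 0.36 ± 0.11 in c2.11 (SE, edgeR adjusted p = 0.0152) and 0.03 ± 0.11 in c2.5 (edgeR adjusted p = 0.843). The call in c2.11 was lost without c2.11 replicate 3 (edgeR adjusted p = 0.0700) or WT replicate 1 (0.0612). Compared directly, c2.11 was above c2.5 by 0.33 ± 0.11 on the log2 scale, which did not pass (edgeR adjusted p = 0.186), so the lines are not shown to differ in this gene.

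**Figure D2:**
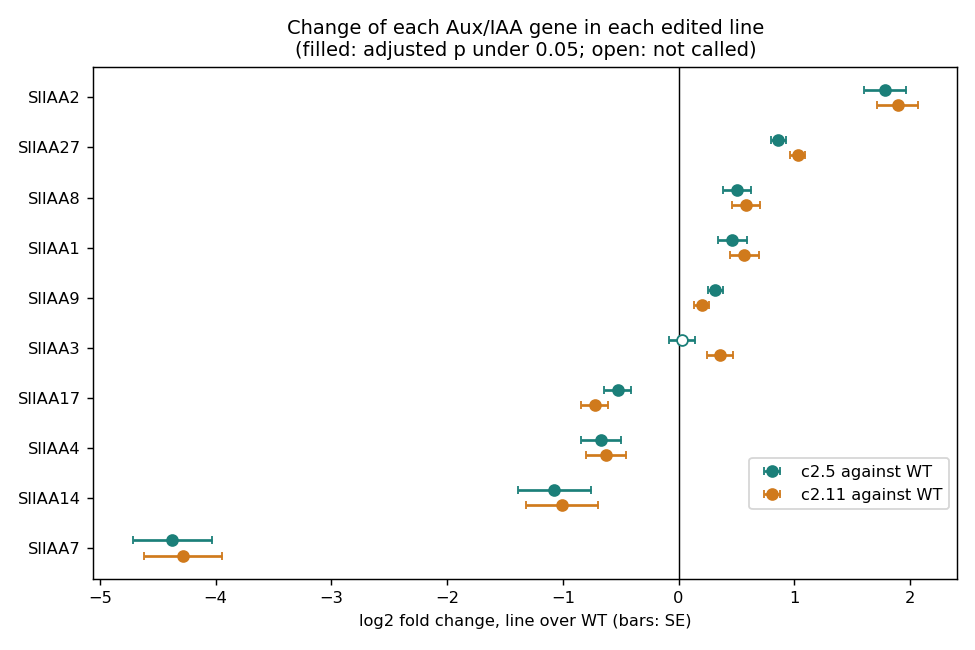
Log2 fold change of each Aux/IAA gene in c2.5 and in c2.11 over WT (points; bars are SE from the edgeR fit of 3 libraries per genotype); filled points were called. The lines differ by at most 0.33, in SlIAA3, and run from 1.78 and 1.89 for SlIAA2 to -4.38 and -4.29 for SlIAA7, and the single open point is SlIAA3 in c2.5.

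Among the genes that fell, SlIAA7 (Solyc06g053830.3, chromosome 6) had only a few counts left in both lines. It had 6, 2 and 6 counts in c2.5 libraries and 6, 3 and 6 in c2.11 libraries, against 73, 74 and 99 in WT libraries. As normalized CPM its level was 0.216 ± 0.106 in c2.5 and 0.232 ± 0.0820 in c2.11, against 4.64 ± 0.963 in WT (SD, n = 3 libraries each). The groups are separated by a wide gap, and counts of this size in the lines leave their own level imprecise. SlIAA7 passed the filter on low counts only through its WT libraries. With only the lines fitted it did not pass, and 9 of the 10 genes were tested. The log2 change was -4.33 ± 0.27 in both lines (SE, edgeR adjusted p = 3.25e-08), larger in size than that of 99.5% of tested genes. It was -4.38 ± 0.34 in c2.5 and -4.29 ± 0.34 in c2.11.

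SlIAA14 (Solyc09g083290.3, chromosome 9) was scarce in all genotypes, with 12, 28 and 38 counts in c2.5 libraries and 30, 23 and 29 in c2.11 libraries, against 46, 45 and 45 in WT libraries. Every line library was below every WT library, and c2.5 replicate 1 was the lowest. The log2 change in both lines was -1.04 ± 0.26 (SE, edgeR adjusted p = 0.00466). In c2.11 alone it was -1.01 ± 0.31 (edgeR adjusted p = 0.0157), a call lost without c2.11 replicate 2 (0.0617).

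SlIAA17 (Solyc06g008590.3, chromosome 6) is a repressor whose silencing is known to give larger tomato fruits with larger pericarp cells. It had 62.9, 67.4 and 75.7 normalized CPM in c2.5 and 62.4, 59.4 and 57.5 in c2.11, against 80.6, 101 and 115 in WT. SlIAA4 (Solyc06g053840.3, chromosome 6) had 15.4, 14.5 and 15.7 in c2.5 and 15.3, 16.2 and 15.6 in c2.11, against 18.1, 22.7 and 32.0 in WT. For both genes the line libraries lay below WT, and WT replicate 1 was the WT library nearest to them.

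The log2 change in both lines was -0.62 ± 0.10 for SlIAA17 (SE, edgeR adjusted p = 0.000408). For SlIAA4 it was -0.65 ± 0.15 (edgeR adjusted p = 0.00420), and it became -0.40 without WT replicate 3 (edgeR adjusted p = 0.00233), the WT library in which SlIAA4 was highest. Neither gene reached a 2-fold change.

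The line and WT libraries did not overlap for 9 of the 10 genes, 5 with all 6 line libraries above WT and 4 with all below. Such separation was common in these data, at 49.5% of tested genes, 24.6% above and 24.9% below. A change that was called and at least 2-fold was seen in 3 Aux/IAA genes in both lines together (SlIAA2, SlIAA7 and SlIAA14), where 14.4% of tested genes met that rule. SlIAA14 met it narrowly: its log2 change was -0.87 without c2.5 replicate 1, -0.99 without c2.11 replicate 2 and -0.76 with total count scaling, under which SlIAA27 (1.22) met it. SlIAA7, counted both as separated and as changed at least 2-fold, was tested only because of its WT counts.

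**Figure D3:**
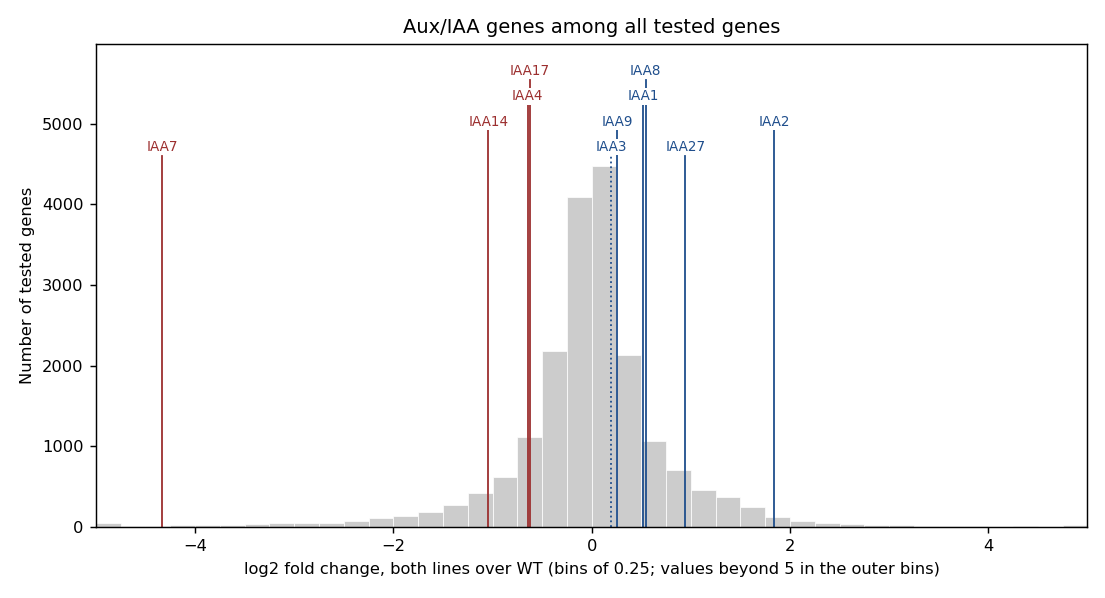
Distribution of the log2 fold change of both lines over WT for the 19358 tested genes (grey bars, number of genes per bin of 0.25), with the 10 Aux/IAA genes as labelled vertical lines, blue above 0, red below and dotted where not called. SlIAA7 lies in the lower tail at -4.33 and SlIAA2 in the upper tail at 1.84, while the others lie between -1.04 and 0.95.

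Taken singly, c2.5 had 9 called Aux/IAA genes, where 49.9% of tested genes were called. These were 5 genes above WT and 4 below it, beside 24.9% higher and 25.1% lower among tested genes. In c2.11 all 10 were called, where 54.6% of tested genes were, with 6 above WT and 4 below it, beside 27.3% in each direction. The gene called in c2.11 alone is SlIAA3. Those called in the same direction in each line were 5 that rose and 4 that fell, beside 21.6% and 22.6% of tested genes. The lines share the WT libraries.

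Scaling by total counts in place of TMM put the median log2 change of all tested genes in both lines together at 0.29, and not at 0.01. The split then became 6 Aux/IAA genes above WT and 3 below it in c2.5, beside 53.1% and 13.3% of tested genes. In c2.11 it became 6 above and 2 below, beside 51.4% and 14.7%. In both lines together each of the 10 genes kept its sign, and the log2 change became 0.53 for SlIAA9, 0.80 for SlIAA1, 0.82 for SlIAA8, -0.36 for SlIAA4 and -0.34 for SlIAA17. Under that scaling SlIAA3 was called higher in both lines together (log2 change 0.47, edgeR adjusted p = 0.000587) and in c2.5 (0.31, edgeR adjusted p = 0.0201). The lower calls of SlIAA17 in c2.5 (edgeR adjusted p = 0.0567) and of SlIAA4 (0.0657) and SlIAA14 (0.0557) in c2.11 were lost.

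No Aux/IAA gene was called different between the edited lines. In the direct comparison of c2.11 with c2.5, 0 of the 10 genes passed the adjusted threshold, both in edgeR and in DESeq2, where 1.29% of all tested genes did in edgeR. At an unadjusted edgeR p under 0.05 there were 2, SlIAA3 and SlIAA27, against 14.4% of tested genes. SlIAA27 was higher in c2.11 by 0.17 ± 0.06 on the log2 scale (SE, edgeR adjusted p = 0.233). The log2 differences of the other genes ran from -0.20 ± 0.12 for SlIAA17 to 0.11 ± 0.16 for SlIAA2, and those of the scarce genes SlIAA7 (0.09 ± 0.49) and SlIAA14 (0.07 ± 0.33) had wide errors. SlIAA7 was among the 10 tested genes only through its WT counts. A p above the threshold does not show that the lines are alike.

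The Aux/IAA counts as a whole made up a larger part of the line libraries. The 10 genes together took 0.105 to 0.108% of all counts in c2.5 and 0.101 to 0.104% in c2.11, against 0.0681 to 0.0756% in WT. A share of all counts is not TMM scaled, and most genes rose on that measure. With total count scaling the median log2 change of all tested genes in both lines together was 0.29, with 55.6% called higher. On the TMM scale the summed level of the 10 genes was 980 to 1022 normalized CPM in c2.5 and 961 to 979 in c2.11, against 781 to 830 in WT. Most of these counts came from SlIAA9, which took 63.9% ± 1.09 of the Aux/IAA counts in c2.5 and 60.8% ± 1.66 in c2.11, against 63.8% ± 3.69 in WT (SD, n = 3 libraries each). These shares are of counts and are not divided by transcript length, so they do not rank the genes by level.

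Within that sum SlIAA27, SlIAA2, SlIAA8 and SlIAA1 took a larger mean share in both lines than in WT. SlIAA17, SlIAA4, SlIAA7 and SlIAA14 took a smaller one. For SlIAA9 and SlIAA3 the lines fell on either side of WT. SlIAA27 took 13.2% ± 0.366 of the Aux/IAA counts in c2.5 and 15.3% ± 1.01 in c2.11, against 9.04% ± 0.569 in WT. SlIAA17 took 6.87% ± 0.638 in c2.5 and 6.17% ± 0.210 in c2.11, against 12.4% ± 2.42 in WT. SlIAA2 took 4.23% ± 0.435 in c2.5 and 4.71% ± 0.368 in c2.11, against 1.54% ± 0.447 in WT (SD, n = 3 libraries each).

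The WT libraries varied more than those of both lines for 6 of the 10 genes by coefficient of variation, as for 50.7% of tested genes. Over all genes, too, pairs of WT libraries differed more than pairs of a line. Chi-square per degree of freedom was 11.5 to 23.2 in WT, against 4.56 to 9.50 in the lines. The edgeR fit estimated the spread of a gene from all genotypes together. For SlIAA17 the coefficient of variation was 9.44% in c2.5 and 4.12% in c2.11, against 17.6% in WT. For SlIAA8 it was 6.06% in c2.5 and 1.32% in c2.11, against 21.4% in WT. WT replicate 1 was the lowest WT library for 7 of the genes and the highest for SlIAA8 and SlIAA9. Leaving it out kept all 9 calls in both lines together, with a log2 change of 0.73 for SlIAA8, -0.82 for SlIAA4 and -0.75 for SlIAA17.

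The 10 genes include pairs of chromosomal neighbours, and the members of each pair differed in their change. SlIAA1 and SlIAA14 have consecutive identifiers and adjacent rows in the table, as do SlIAA7 and SlIAA4, between which 1 other gene starts in the RefSeq annotation SLM_r2.1. The ratio of SlIAA1 to SlIAA14 counts was 25.8, 12.7 and 10.8 in c2.5 libraries and 11.8, 19.0 and 12.8 in c2.11 libraries, against 4.22, 5.36 and 4.64 in WT libraries. This pair held a gene that rose and a gene that fell.

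For SlIAA4 over SlIAA7 the ratio was 55.5, 154 and 56.8 in c2.5 and 54.7, 118 and 55.7 in c2.11, against 4.56, 5.39 and 5.57 in WT. Here both genes fell, SlIAA7 much further. The mean log2 ratio (0.5 counts added) was 6.06 ± 0.584 in the 6 line libraries and 2.36 ± 0.155 in the 3 WT libraries (SD), a difference of 3.70. For SlIAA1 over SlIAA14 it was 3.85 ± 0.470 and 2.23 ± 0.173, a difference of 1.63. A two-sided exact permutation test over libraries gave p = 0.0119 for each pair, the smallest p that its 84 arrangements allow (adjusted p = 0.0119 over the 2 pairs). The values of the single genes described above already fix that p, so it is no further support. SlIAA1 and SlIAA14 moved in opposite directions, and SlIAA7 fell much further than SlIAA4. A ratio within a library needs no scaling, and it shows unequal change, not which gene changed.

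**Figure D4:**
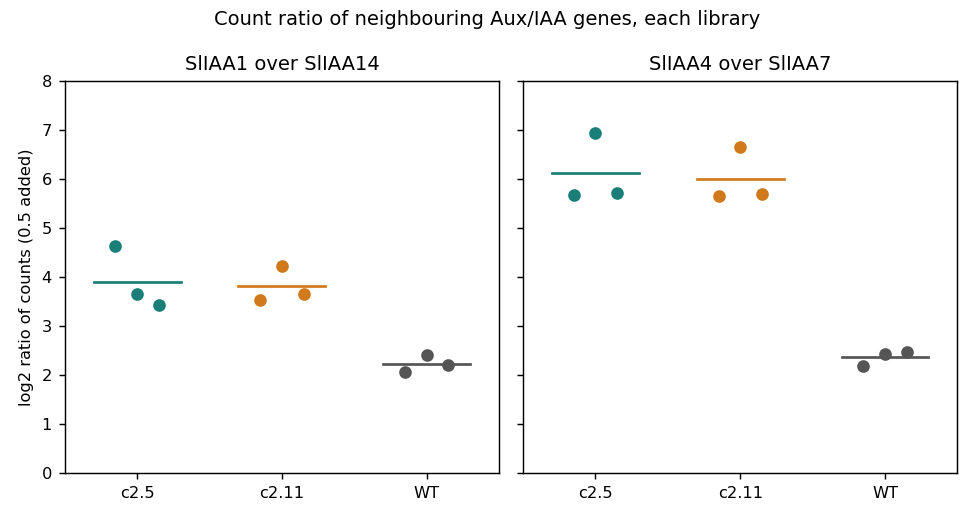
Log2 ratio of counts (0.5 added to each) of SlIAA1 over SlIAA14 and of SlIAA4 over SlIAA7 in each library of c2.5, c2.11 and WT; dots are libraries and lines are means of 3. In both pairs every line library lies above every WT library, with means of 3.85 in the lines against 2.23 in WT for the first pair and of 6.06 against 2.36 for the second.

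Other genes of the auxin pathway were counted from lists of identifiers paired with their families by general knowledge, since neither the count table nor the reference table names them. Of 11 further Aux/IAA identifiers, all tested, 8 were higher in both lines together, 7 of them at least 2-fold, and 0 were lower. Among all tested genes 28.5% were higher and 28.6% lower, and 14.4% were called and at least 2-fold in either direction. The median log2 change of the 11 was 1.20, beside 0.23 for the 10 genes above and 0.01 for all tested genes. None of the 11 was lower at an unadjusted edgeR p under 0.05 either, whereas 1 was called lower with DESeq2, and 1 in edgeR without c2.11 replicate 1. Total count scaling called 10 of the 11 higher, where it called 55.6% of tested genes higher. The summed level of these 11 was 488 to 542 normalized CPM in c2.5 and 529 to 563 in c2.11, against 296 to 316 in WT.

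The 3 TIR1/AFB identifiers, for the receptors that bind auxin together with Aux/IAA proteins, were all lower in both lines together, with a median log2 change of -0.67, or of -0.39 with total count scaling, where all 3 were again lower. Their summed level was 268 to 280 normalized CPM in c2.5 and 244 to 272 in c2.11, against 412 to 451 in WT. Of 18 ARF identifiers, the partners that Aux/IAA proteins repress, 5 were higher and 6 lower, a split that total count scaling turned into 10 higher and 4 lower, with a median log2 change of 0.26. Of 6 TOPLESS identifiers 2 were higher and 1 lower, while total count scaling called all 6 higher, with a median of 0.30. Under that scaling the median of all tested genes was 0.29, with 55.6% of them higher and 15.2% lower. With TMM the medians of the ARF and TOPLESS lists were -0.01 and 0.03, beside 0.01 for all tested genes. The ARF and TOPLESS medians thus lay near the background under either scaling, while the TIR1/AFB median lay below it. With TMM 28.6% of all tested genes were lower.

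Among the tested genes for auxin transport, synthesis and conjugation more were higher than lower in the lines. Among 15 identifiers of the PIN and AUX1/LAX carriers, which move auxin between cells, 12 were tested, 7 were higher and 2 lower, or 8 and 1 if scaled by total counts. Their summed level did not follow that count, at 456 to 492 normalized CPM in c2.5 and 443 to 473 in c2.11, against 480 to 524 in WT. Among 8 identifiers for YUCCA enzymes, which make auxin, and GH3 enzymes, which conjugate it, 6 were tested, 4 were higher and 1 lower under both scalings, with a summed level of 75.7 to 86.7 in c2.5 and 61.7 to 66.1 in c2.11, against 31.5 to 41.5 in WT. YUCCA and GH3 enzymes were not counted apart, so neither these calls nor the sum can be assigned to synthesis or to conjugation. Without WT replicate 1 the higher genes were 6 of 12 carriers and 3 of 6 enzymes. With TMM these counts stand beside 28.5% higher and 28.6% lower among all tested genes, or 27.1% and 27.5% without WT replicate 1. If scaled by total counts, most tested genes were higher, with 55.6% higher and 15.2% lower.

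**Figure D5:**
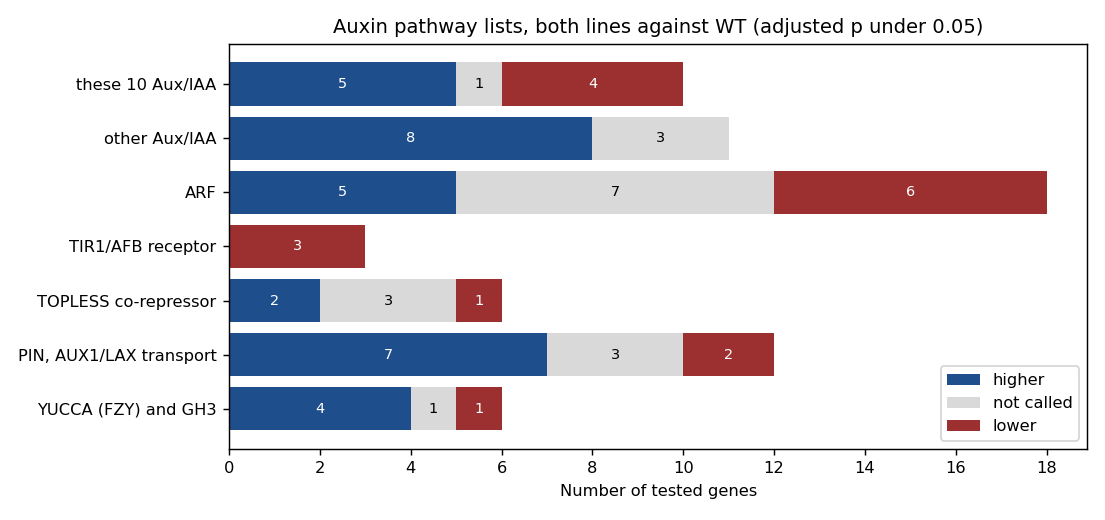
Number of tested genes of each auxin pathway list that were higher (blue), not called (grey) or lower (red) in both lines against WT, at an edgeR adjusted p under 0.05. Of the 10 Aux/IAA genes 5 were higher and 4 lower, of 11 further Aux/IAA identifiers 8 were higher, and all 3 TIR1/AFB identifiers were lower.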

How the data were processed

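The deposited table holds raw whole-number counts per gene, which the authors made with featureCounts after FastQC, per the submitters' processing notes; the aligner, genome build, gene models and strandedness of counting are not given in the sources at hand. Overlapping and near-identical genes therefore cannot be separated. Each column was matched to its library by title. The main test was that of edgeR 4.0.16, run in R 4.3.3 (filterByExpr, TMM, robust quasi-likelihood fit over all 9 libraries, no covariate), with DESeq2 1.42.0 as an alternative. The SE is the log2 fold change divided by the square root of F. On simulated counts of both lines against WT (18888 genes, 200 of them changed) the test recovered 76.1%, 85.1% and 97.0% of genes changed 1.5-, 2- and 4-fold, with 11 false calls among 183. Those counts were drawn with the spread fitted to these data, and changed genes were taken only above a minimum WT level. Few genes were changed there, whereas most genes differ here, so these rates do not carry over to these data or to scarce genes. All 10 Aux/IAA genes are named; members and lists were chosen with earlier results of these data known. Of the 10 symbols, 8 were found in RefSeq SLM_r2.1, all on the chromosome in the identifier; the table of counts holds no symbols. No sequences are shown. Alternatives were median-of-ratios factors, total counts, other filters, fits on the compared genotypes, the replicate number as a block and each library left out. No 2 libraries of a genotype were duplicates (chi-square per degree of freedom 4.56 or more).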

Additional observations from a re-analysis of the deposited data

How the results depend on the processing

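The number of Aux/IAA genes called stayed within 1.5 times in each comparison under all alternatives run: 8 to 10 for the lines combined, 8 to 9 for c2.5 and 8 to 10 for c2.11, with 0 between the lines. The replicate block gave 9, 9, 10 and 0. Same-numbered libraries share only a number as far as the labels say, and the correlations of their deviations ran from -0.27 to 0.23. With single libraries left out, SlIAA3 in c2.5 ranged from -0.054 to 0.12 on the log2 scale and was not called; in both lines together its change of 0.19 became 0.24 and was called without c2.5 replicate 1 (edgeR adjusted p = 0.0487). In c2.11 against c2.5, SlIAA7 ranged from -0.25 to 0.36 and SlIAA14 from -0.28 to 0.43. Over all tested genes, calls between the lines numbered 249, and 442 with DESeq2, 626 with only those lines fitted (SlIAA7 did not pass that filter) and 70 to 356 without single libraries; the cause was not tested. The pair ratios kept their direction with 1 count added and without each library. SlIAA7 did not pass the filter of 1 CPM in 6 libraries. Counts of 2 to 46 in a library limit SlIAA7 in the lines and SlIAA14.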
